A study of Mus musculus with 12 samples.

Results

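Ribosome biogenesis genes encode the proteins that transcribe, modify, cut and fold ribosomal RNA in the nucleolus and assemble it into the small and large ribosomal subunits. A fixed list of 49 symbols was read from the 55216 gene rows of the count table, and all 49 were among the 13177 genes with enough counts to be tested. They were placed by role into box C/D snoRNP (3 genes), box H/ACA snoRNP (4), nucleolar phosphoproteins (3), RNA polymerase I and its regulators (7), small subunit assembly (13), large subunit assembly (16), and growth and polyamine genes (3). The data are RNA-seq counts from Myc-CaP, an established prostate cancer line from a male FVB/NJ mouse that carries a human MYC transgene under an androgen-responsive promoter. All groups were grown in the same serum-containing medium for 48 h and were either untreated (Ctrl), given interferon γ at 200 pg (IFN200) or 2000 pg (IFN2000), given 2 μM of the DNA-crosslinking platinum drug oxaliplatin (Oxali), or given Oxali together with 200 pg (Combo200) or 2000 pg (Combo2000) of IFNγ. Each of the 6 groups holds 2 libraries. The IFNγ amounts are those of the labels, which state no volume. The study's figure legend for RNA-seq of Myc-CaP cells gives IFNγ amounts per mL.

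Groups follow the library titles. A separate agent label names another treatment for the 6 libraries of the single treatments. Libraries titled IFN200 carry the agent Oxali, those titled IFN2000 carry IFNγ 200 pg, and those titled Oxali carry IFNγ 2000 pg. Under the agent labels the comparisons named IFN200, IFN2000 and Oxali below would exchange names, while Ctrl and both combinations would keep theirs. Libraries titled IFN200 differed from Ctrl at 15 of 13177 genes tested. Those titled Oxali had 4321 genes lower and 4590 higher than Ctrl, and Combo200 had 33 lower and 208 higher than them. Library totals ran from 18749975 to 25931516 counts. The line was checked against prostate epithelial markers. Krt8 and Hoxb13 passed the filter on low counts, with Hoxb13 at 29.2 to 45.1 CPM (the count scaled for library size), while Epcam was at 0 in every library and Krt18 and Cdh1 did not exceed 0.276 CPM. Summed over 8 T cell markers, IFN2000 replicate 2 held 14.3 CPM (335 counts, 175 of them of Gzmb, with Cd8a at 0) against 0.133 to 1.85 CPM in the other 11 libraries. Summed over 6 heart muscle markers, IFN200 replicate 1 held 6.64 CPM, with all 6 genes detected, against 0.835 to 5.94 CPM elsewhere, where Tnnt2 made up most of the sum. Macrophage markers summed to at most 2.18 CPM, and endothelial and fibroblast markers to 11.7 to 15 CPM, nearly all of it Pdgfrb.

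Ribosome production begins with transcription of the long ribosomal RNA precursor by RNA polymerase I. Small nucleolar RNPs then guide its methylation and pseudouridylation, and assembly factors cleave it and add ribosomal proteins. MYC, with its partner MAX, binds the E-box CACGTG and is known to raise the transcription of many of these genes. Oxaliplatin is known to disturb the nucleolus. The level of a message measured here is relative to all counted messages, so less RNA of these genes in each cell and a shift in the makeup of the culture cannot be told apart.

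Since MYC acts through the E-box, RefSeq promoter sequence (GRCm38.p6, 250 bases before to 50 bases after the annotated first base) was searched for CACGTG, which reads the same on both strands. The promoter table held 43 of the 49 genes, and Fbl, Npm1, Rrp12, Bop1, Gnl2 and Srm are named only. The motif was in 8 of the 43 promoters (18.6%), against 8.09% of 27025 promoters of all genes and 11.9% of the 9596 promoters of genes tested. The stretch around the E-box is shown for these 8, on the strand of the gene, because it is the sequence through which MYC is known to reach such genes. Capitals mark the E-box. Those of Mybbp1a and Utp20 stop where the promoter window ends. Their positions, in the same order, are chr11:72441355-72441376 (plus strand), chr17:71616220-71616249 (plus), chr11:3963965-3963994 (plus), chr6:125131811-125131840 (plus), chr10:88826765-88826789 (minus), chr11:74898092-74898121 (plus), chr10:13193092-13193121 (minus) and chr11:82908355-82908384 (minus).
Mybbp1a: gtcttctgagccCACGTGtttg
Wdr43: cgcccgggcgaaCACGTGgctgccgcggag
Pes1: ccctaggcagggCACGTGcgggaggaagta
Nop2: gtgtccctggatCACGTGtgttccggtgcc
Utp20: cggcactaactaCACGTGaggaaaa
Tsr1: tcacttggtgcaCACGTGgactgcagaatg
Ltv1: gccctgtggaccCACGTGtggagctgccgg
Nle1: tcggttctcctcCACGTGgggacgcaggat

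In Nop2 the E-box began 60 bases before the annotated first base, and in the other members it began 2 to 40 bases after it. All 8 genes were lower in Oxali, with log2 fold changes from -0.09 for Wdr43 to -0.66 for Nle1 and a median of -0.34. Of the 35 members whose window lacked the motif, 29 were lower, and their median was -0.48. Over all genes tested that had a promoter entry, 463 of 1141 with the motif and 2834 of 8455 without it were lower, with medians of -0.04 and 0.04. The difference between members with and without the motif was not tested.

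The comparison of Oxali with Ctrl asks how low-dose Oxali alone changed these messages. Of the 49 genes, 42 were called lower (edgeR, adjusted p under 0.05), against 32.8% of all genes tested, and 1 was called higher, against 34.8%. The median log2 fold change was -0.43 over the 49 genes and 0.02 over all genes tested. A fall of at least 1.5-fold was called for 15 members, against 10.5% of genes tested, and Bop1 alone fell by more than 2-fold. The 49 genes together took 1.51% and 1.55% of all counts in the Ctrl libraries and 1.18% and 1.2% in the Oxali libraries. Across the members the standard error of a log2 fold change was 0.03 to 0.07. Markers of other cell types also differed in level with Oxali. The 6 libraries with Oxali held 3.06 to 5.94 CPM of heart muscle markers and 1.24 to 1.85 CPM of T cell markers, against 0.835 to 1.27 CPM and 0.334 to 0.405 CPM in Ctrl. Most of this was Tnnt2 and Lck, while Cd3d and Cd8a were at 0 in all 6. Macrophage markers summed to 1.53 to 2.18 CPM with Oxali and 0.556 to 1.27 CPM in Ctrl, with Cd68 the largest in each library, Csf1r at 8 to 19 counts against 0, and Adgre1 and Itgam at 0 in every library. The part of these markers in the result was not tested. With another scaling of the libraries (upper quartile), 37 members were called lower and 1 higher. Of the 13177 genes tested, 3861 were lower and 5036 higher under that scaling, with a median of 0.07.

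**Figure D1:**
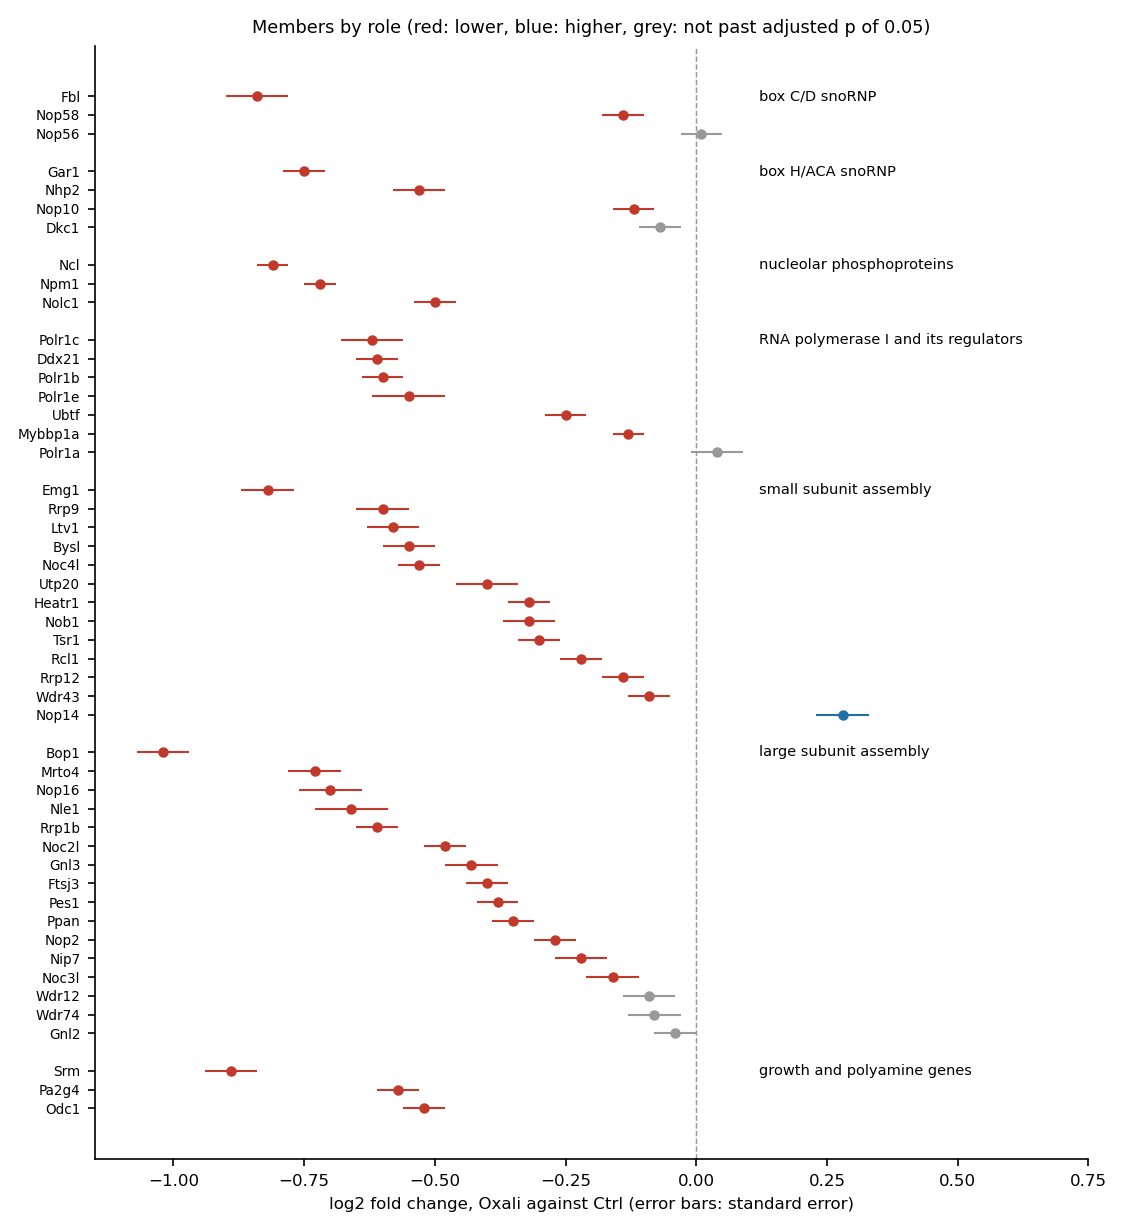
The horizontal axis gives the log2 fold change in Oxali against Ctrl for each of the 49 genes, grouped by role on the vertical axis, and bars give the standard error. Bop1 lies farthest to the left at -1.02, Nop14 is the single gene called higher at 0.28, and Nop56, Polr1a, Dkc1, Wdr12, Wdr74 and Gnl2 (grey) lie near 0.

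**Figure D2:**
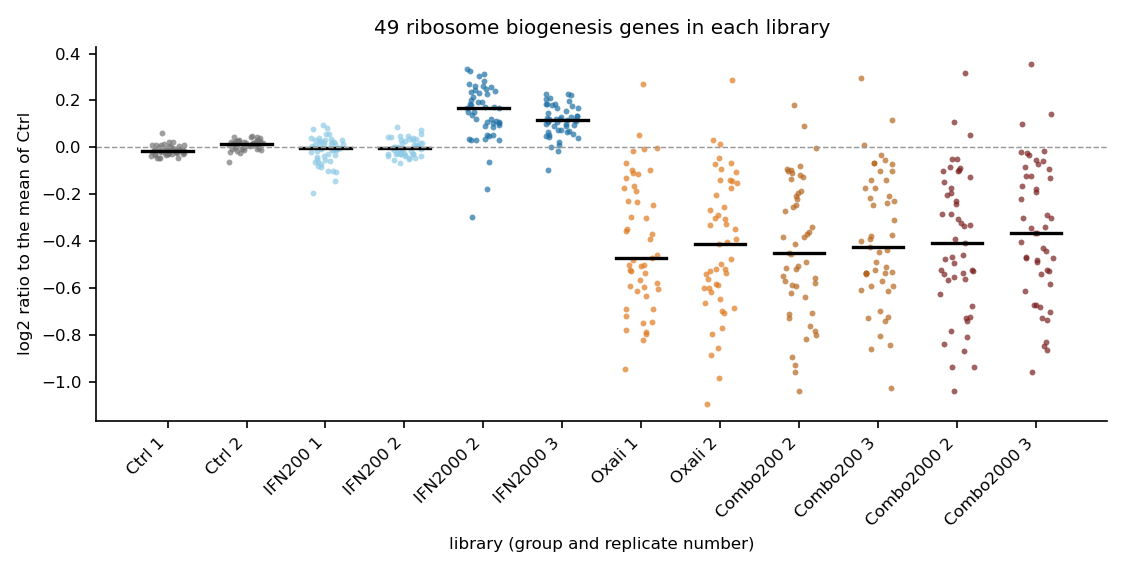
Each point is the log2 ratio of 1 of the 49 genes to its mean in Ctrl, plotted by library, and the black line is the median of the 49. The medians were -0.47 and -0.41 in the Oxali libraries, -0.36 to -0.45 in the combinations, 0.17 and 0.12 in IFN2000 and 0 in both IFN200 libraries.

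The nucleolar phosphoproteins had the lowest median log2 fold change of the roles, at -0.72 (range -0.81 to -0.50). All 3 were called lower, against 32.8% of all genes tested. With 3 genes this median is the value of Npm1, and the growth and polyamine genes ranged from -0.89 to -0.52. Ncl encodes nucleolin, which binds the nascent ribosomal RNA precursor. Its levels were 2831 and 2872 CPM (Ctrl), 2901 and 2944 (IFN200), 2959 and 3104 (IFN2000), 1614 and 1642 (Oxali), 1536 and 1591 (Combo200) and 1592 and 1602 (Combo2000). Libraries with Oxali did not overlap those without, and Ncl fell by 42.9%, a log2 change of -0.81 ± 0.03 (SE, adjusted p = 7.78e-15). Npm1 encodes nucleophosmin, a nucleolar histone chaperone and assembly factor, and was at 2653 and 2637 CPM (Ctrl), 2804 and 2719 (IFN200), 2862 and 2777 (IFN2000), 1571 and 1645 (Oxali), 1536 and 1597 (Combo200) and 1583 and 1659 (Combo2000). It fell by 39.2% in Oxali, with a log2 change of -0.72 ± 0.03 (SE, adjusted p = 2.03e-13). Ncl and Npm1 together made up 0.526% and 0.529% of all counts in Ctrl and 0.332% and 0.346% in Oxali. Nolc1, a chaperone of snoRNPs also called Nopp140, was at 550 and 581 CPM (Ctrl), 578 and 560 (IFN200), 675 and 654 (IFN2000), 397 and 400 (Oxali), 383 and 390 (Combo200) and 390 and 407 (Combo2000). Its log2 fold change in Oxali was -0.50 ± 0.04 (SE, adjusted p = 4.57e-10), with every Oxali-containing library below every other. Of the Npm1 transcript, 40.9% of 50-base words also occur in other annotated genes, so its count is uncertain.

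Among RNA polymerase I and its regulators, 6 of 7 genes were lower in Oxali, against 32.8% of all genes tested. The median log2 fold change was -0.55. The catalytic subunits did not move alike. Polr1a, the largest subunit of RNA polymerase I, was at 174 and 176 CPM (Ctrl), 177 and 172 (IFN200), 155 and 173 (IFN2000), 182 and 179 (Oxali), 187 and 190 (Combo200) and 189 and 188 (Combo2000), and Oxali and Ctrl differed by 0.04 ± 0.05 (SE, adjusted p = 0.41) on the log2 scale, which did not pass the test. Polr1b, the second largest subunit, fell by 34.1%, with a log2 change of -0.60 ± 0.04 (SE, adjusted p = 2.31e-10). Polr1c, a subunit that RNA polymerases I and III share, was at 75.4 and 69.1 CPM (Ctrl), 70.1 and 74 (IFN200), 74.9 and 75.5 (IFN2000), 48.1 and 46 (Oxali), 51.3 and 53.2 (Combo200) and 51.7 and 56.9 (Combo2000). This was the largest change of the role, at -0.62 ± 0.06 (SE, adjusted p = 7.43e-09). Polr1e, which forms a subunit pair that helps initiation, fell by 31.9%. Ubtf, the factor that binds and opens ribosomal DNA, fell less, by 15.9%, with a log2 change of -0.25 ± 0.04 (SE, adjusted p = 3.24e-06). Ddx21, a helicase at ribosomal DNA and pre-rRNA, fell by 34.4%. Mybbp1a, a nucleolar partner of MYB, was at 1084 and 1135 CPM (Ctrl), 1086 and 1076 (IFN200), 1185 and 1169 (IFN2000), 1015 and 1007 (Oxali), 1023 and 1033 (Combo200) and 1046 and 1086 (Combo2000). Its fall in Oxali, -0.13 ± 0.03 (SE, adjusted p = 0.000927), was small, and the libraries of Oxali and Ctrl did not overlap. Exons of Polr1a share 185 bases with Gm26628 on the opposite strand, and those of Mybbp1a share 131 with Spns2. The strand setting of the counting is not given, so reads of these pairs cannot be told apart.

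In the box C/D snoRNP, which carries out 2'-O-methylation of ribosomal RNA, the enzyme and its scaffold proteins had different values. Fbl, the methyltransferase fibrillarin, was at 168 and 172 CPM (Ctrl), 169 and 171 (IFN200), 209 and 181 (IFN2000), 98.3 and 91.6 (Oxali), 87.2 and 96.9 (Combo200) and 88.4 and 93.1 (Combo2000). It fell by 44.1% in Oxali, with a log2 change of -0.84 ± 0.06 (SE, adjusted p = 3.16e-10). Scaffold protein Nop58 was at 366 and 382 CPM (Ctrl), 378 and 373 (IFN200), 424 and 413 (IFN2000), 329 and 350 (Oxali), 324 and 331 (Combo200) and 325 and 342 (Combo2000), a change of -9.19% in Oxali. Its relative Nop56 was at 315 and 319 CPM (Ctrl), 315 and 323 (IFN200), 381 and 361 (IFN2000), 317 and 321 (Oxali), 316 and 310 (Combo200) and 329 and 350 (Combo2000), and the difference in Oxali, 0.01 ± 0.04 (SE, adjusted p = 0.909), did not pass the test. The differences between these genes were not tested. Of the 50-base words of the Fbl transcript, 70.4% occur in other annotated genes, and for Nop56 37.6% do, so both counts are uncertain.

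The box H/ACA snoRNP, which converts uridine to pseudouridine and is also part of telomerase, had a median of -0.33. Of its 4 members 3 were lower, against 32.8% of all genes tested. Dkc1 encodes its enzyme, dyskerin, and was at 234 and 243 CPM (Ctrl), 254 and 250 (IFN200), 264 and 261 (IFN2000), 222 and 231 (Oxali), 221 and 229 (Combo200) and 223 and 229 (Combo2000). Values of Oxali differed from those of Ctrl by -0.07 ± 0.04 (SE, adjusted p = 0.111) on the log2 scale, which did not pass the test. Gar1, which binds the enzyme directly, was at 110 and 109 CPM (Ctrl), 109 and 108 (IFN200), 117 and 115 (IFN2000), 66.5 and 64.1 (Oxali), 64.5 and 67.3 (Combo200) and 62.5 and 66.1 (Combo2000). It fell by 40.5%, with all Oxali-containing libraries between 62.5 and 67.3 CPM. Nhp2 fell by 30.6%, and the change of Nop10 was -8.28%.

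Small subunit assembly held 13 genes, with a median of -0.32 in Oxali. Of these, 12 were lower, against 32.8% of all genes tested, and 1 was higher, against 34.8%. Emg1, a methyltransferase of 18S ribosomal RNA, was at 146 and 143 CPM (Ctrl), 135 and 142 (IFN200), 164 and 156 (IFN2000), 83.9 and 79.6 (Oxali), 82.7 and 86.3 (Combo200) and 78.8 and 86.6 (Combo2000). It had the largest fall of the role, -0.82 ± 0.05 (SE, adjusted p = 2.04e-11). Wdr43, a subunit of the complex that acts first on the precursor, was at 374 and 384 CPM (Ctrl), 389 and 384 (IFN200), 426 and 413 (IFN2000), 351 and 362 (Oxali), 347 and 362 (Combo200) and 366 and 374 (Combo2000). Its log2 fold change of -0.09 ± 0.04 (SE, adjusted p = 0.0393) was close to the threshold. Nop14 was the exception, at 113 and 111 CPM (Ctrl), 118 and 109 (IFN200), 119 and 122 (IFN2000), 135 and 136 (Oxali), 127 and 137 (Combo200) and 139 and 143 (Combo2000). This processome factor rose by 21.3% in Oxali, with a log2 change of 0.28 ± 0.05 (SE, adjusted p = 3.03e-05), and its Oxali-containing libraries lay above all others. Its partner Noc4l fell by 31%. The U3 snoRNP protein Rrp9 fell by 34.1%, the late-acting export and assembly factors Bysl and Ltv1 by 31.6% and 32.9%, the scaffold proteins Utp20 and Heatr1 by 24.4% and 19.7%, the nuclease Nob1 by 20.1%, and Tsr1, Rcl1 and Rrp12 by 18.9%, 14.2% and 9%. Exons of Emg1 share 334 bases with Lpcat3 on the opposite strand, and those of Bysl share 361 bases with Ccnd3. Those of Tsr1 share 1240 bases with Srr, those of Heatr1 155 with Lgals8 and those of Nop14 144 with Gm15522. Since the strand setting of the counting is not given, reads of these pairs cannot be told apart.

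Large subunit assembly held 16 genes, with a median of -0.39 in Oxali. Of these, 13 were lower, against 32.8% of all genes tested, and none was higher, against 34.8%. Bop1, Pes1 and Wdr12 form 1 complex needed to process the precursor of the large subunit RNAs, and their messages had unlike values. Bop1 was at 270 and 280 CPM (Ctrl), 256 and 269 (IFN200), 302 and 299 (IFN2000), 143 and 129 (Oxali), 134 and 135 (Combo200) and 133 and 141 (Combo2000). It fell by 50.7%, a log2 change of -1.02 ± 0.05 (SE, adjusted p = 3.36e-13), the largest among the 49 genes. Pes1 fell by 22.9%, and Wdr12 had a log2 difference of -0.09 ± 0.05 (SE, adjusted p = 0.139) that did not pass the test. Ftsj3, an rRNA methyltransferase, was at 375 and 375 CPM (Ctrl), 385 and 388 (IFN200), 403 and 412 (IFN2000), 286 and 282 (Oxali), 288 and 284 (Combo200) and 282 and 295 (Combo2000), and it fell by 24.3%. Gnl2, a nucleolar GTPase, was at 102 and 102 CPM (Ctrl), 103 and 105 (IFN200), 110 and 111 (IFN2000), 101 and 96.8 (Oxali), 95.4 and 97.2 (Combo200) and 98.2 and 101 (Combo2000), and the libraries of Oxali lay at or below those of Ctrl with a log2 difference of -0.04 ± 0.04 (SE, adjusted p = 0.399) that did not pass the test. Its relative Gnl3, nucleostemin, had a log2 change of -0.43 ± 0.05 (SE, adjusted p = 8.08e-08). Mrto4, which holds the place of a stalk protein in the immature subunit, fell by 39.7%, Nop16 by 38.5%, Nle1 by 36.8%, Rrp1b by 34.7% and Ppan by 21.7%. Noc2l had a log2 fold change of -0.48. Smaller falls were those of the methyltransferase Nop2 (-0.27), Nip7 (-0.22) and Noc3l (-0.16) on the same scale. Wdr74, at -0.08, did not pass the test. Of the 50-base words of the Mrto4 transcript, 33.6% occur in other annotated genes, and for Pes1 20.6% do. Exons of Noc2l share 598 bases with Samd11 on the opposite strand, with the same doubt about strand.

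All 3 growth and polyamine genes were lower in Oxali, against 32.8% of all genes tested. Srm, spermidine synthase, was at 321 and 330 CPM (Ctrl), 294 and 317 (IFN200), 381 and 370 (IFN2000), 187 and 164 (Oxali), 171 and 179 (Combo200) and 170 and 181 (Combo2000). It fell by 46%, with a log2 change of -0.89 ± 0.05 (SE, adjusted p = 1.87e-11). Odc1, the rate-limiting enzyme of polyamine synthesis and a known MYC target, was at 416 and 422 CPM (Ctrl), 396 and 419 (IFN200), 503 and 471 (IFN2000), 290 and 293 (Oxali), 293 and 307 (Combo200) and 291 and 291 (Combo2000), and its log2 fold change was -0.52 ± 0.04 (SE, adjusted p = 8.42e-10). Pa2g4, a growth-regulated nucleolar protein also called EBP1, was at 514 and 529 CPM (Ctrl), 542 and 532 (IFN200), 628 and 610 (IFN2000), 346 and 358 (Oxali), 351 and 358 (Combo200) and 361 and 376 (Combo2000), and its log2 fold change was -0.57 ± 0.04 (SE, adjusted p = 4.9e-11). Of the 50-base words of the Odc1 transcript, 42.2% occur in other annotated genes.

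**Figure D3:**
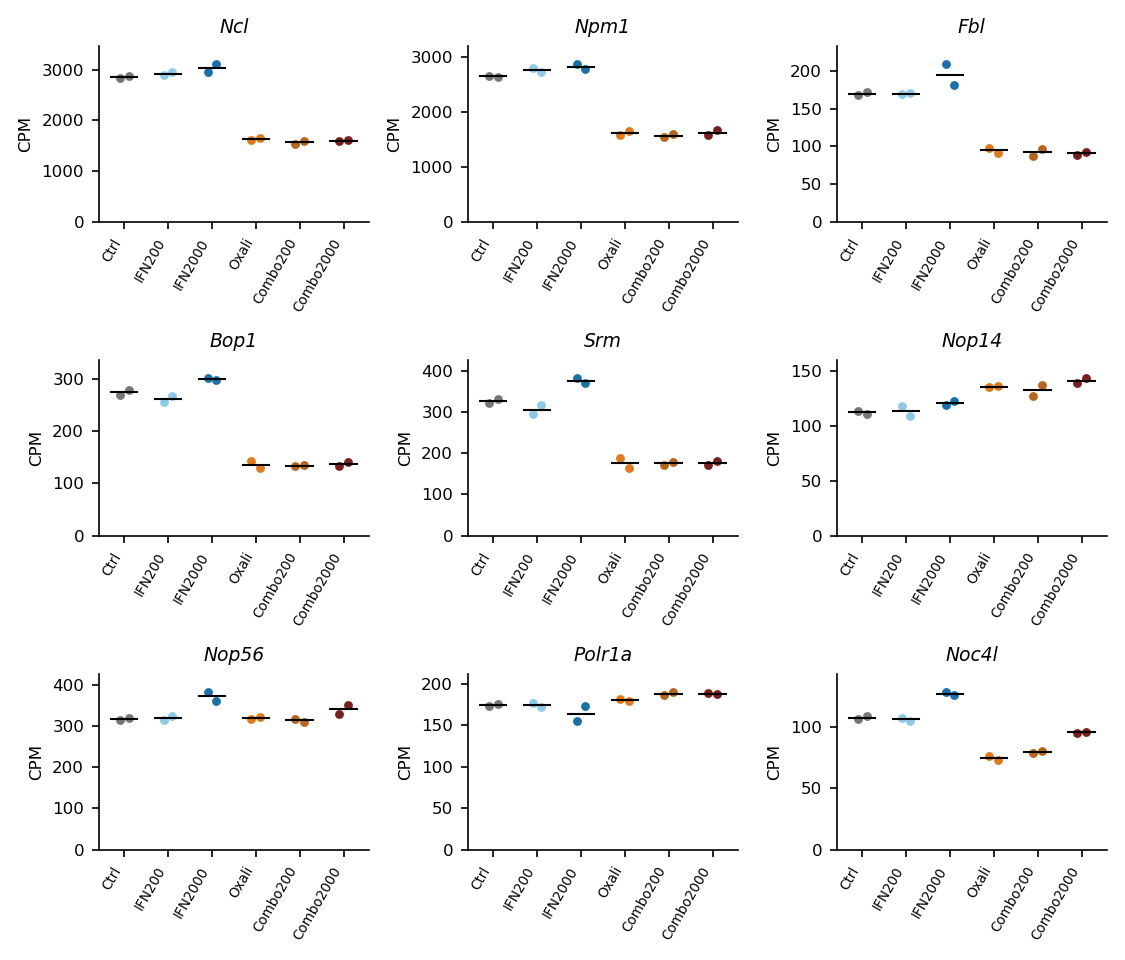
The vertical axes give CPM from 0 in each library (points) by group, with the group mean as a line. Ncl, Npm1, Fbl, Bop1 and Srm sit at a lower level in the 3 groups with Oxali, Nop14 sits higher there, Nop56 and Polr1a differ little between Ctrl and Oxali, and Noc4l in Combo2000 (95.3 and 96 CPM) lies between Oxali and Ctrl.

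The combinations were compared with Ctrl in the same way, and these comparisons share the Ctrl libraries with the one above. In Combo200, 42 members were lower, against 33.1% of genes tested, and 2 were higher, against 35.6%, with a median of -0.44. Falls of at least 1.5-fold were called for 13 members, against 11.0%. In Combo2000, 39 members were lower, against 33.5%, and 3 were higher, against 35.7%, with a median of -0.38. Here 12 members fell by at least 1.5-fold, against 10.9%. The largest falls in Combo200 were Bop1 (-1.03), Srm (-0.89) and Fbl (-0.88), and in Combo2000 they were Bop1, Fbl (-0.90) and Srm (-0.89). Nop14 rose in both, by 0.24 ± 0.05 (SE, adjusted p = 0.000141) and 0.34 ± 0.05 (SE, adjusted p = 2.48e-06). Polr1a rose by 0.10 ± 0.04 (SE, adjusted p = 0.0453) in Combo200 and by 0.11 ± 0.04 (SE, adjusted p = 0.0424) in Combo2000, and Nop56 by 0.10 ± 0.04 (SE, adjusted p = 0.0356) in Combo2000. With the scaling of DESeq2 (RLE) or with DESeq2 itself, Nop14 alone was called higher in each combination. Mybbp1a, Rrp12 and Wdr43, which were lower in Oxali, had log2 values of -0.06, -0.10 and -0.03 in Combo2000 that did not pass the test.

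By role the Combo2000 medians were -0.71 for nucleolar phosphoproteins, -0.52 for growth and polyamine genes, -0.41 for RNA polymerase I and its regulators, -0.36 for large subunit assembly, -0.29 for box H/ACA, -0.28 for small subunit assembly and -0.17 for box C/D. The corresponding medians in Oxali were -0.72, -0.57, -0.55, -0.39, -0.33, -0.32 and -0.14. Nucleolar phosphoproteins had the lowest median in both.

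Whether IFNγ changed these genes when added to Oxali was asked by setting the combinations against Oxali. In Combo200 no member was called lower (0 of 49, against 0.250% of genes tested) or higher (0, against 1.58%) by edgeR or by DESeq2, and 2 members had an unadjusted p under 0.05. The log2 differences ran from -0.11 to 0.15. In Combo2000 no member was called lower (0, against 0.987%) by either tool and 2 were higher (against 3.37%), while 6 had an unadjusted p under 0.05. Noc4l, a partner of Nop14 in small subunit assembly, was at 106 and 109 CPM (Ctrl), 107 and 105 (IFN200), 128 and 126 (IFN2000), 75.9 and 72.7 (Oxali), 78.5 and 80.1 (Combo200) and 95.3 and 96 (Combo2000). Its Combo2000 libraries lay above all libraries of Oxali and Combo200 and below those of Ctrl, a log2 difference from Oxali of 0.36 ± 0.04 (SE, adjusted p = 3.32e-06). The difference for Polr1c was 0.20 ± 0.06 (SE, adjusted p = 0.0418). Noc4l was called under every alternative setting run, whereas Polr1c was not called under 10 of them, among them DESeq2 and upper-quartile scaling.

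IFNγ alone was tested at 2 amounts. At 200 pg no member was called lower (0, against 0% of genes tested) or higher (0, against 0.114%) by edgeR or DESeq2, 2 members had an unadjusted p under 0.05, and log2 fold changes ran from -0.13 to 0.08. At 2000 pg, 25 members were higher, against 8.39% of genes tested, and 1 was lower, against 8.47%. The median log2 fold change was 0.13, no member changed by 1.5-fold, and the range was -0.19 to 0.28. The share of all counts held by the 49 genes was 1.67% and 1.64% in the IFN2000 libraries. Nip7, a factor for large subunit RNA processing, rose most, at 109 and 108 CPM (Ctrl), 111 and 105 (IFN200), 137 and 127 (IFN2000), 92.5 and 94.2 (Oxali), 95.4 and 98.5 (Combo200) and 98.1 and 102 (Combo2000), with a log2 change of 0.28 ± 0.04 (SE, adjusted p = 0.00028). Next were Mrto4, at 110 and 112 CPM (Ctrl), 112 and 114 (IFN200), 139 and 127 (IFN2000), 66 and 67.8 (Oxali), 67.7 and 66.9 (Combo200) and 64.3 and 67.8 (Combo2000), which rose by 0.26 ± 0.04 (SE, adjusted p = 0.000517), and Rrp9, which rose by 0.25 ± 0.05 (SE, adjusted p = 0.00231). Utp20, the single member called lower, was at 192 and 205 CPM (Ctrl), 193 and 191 (IFN200), 161 and 186 (IFN2000), 144 and 156 (Oxali), 152 and 153 (Combo200) and 163 and 150 (Combo2000), a log2 change of -0.19 ± 0.06 (SE, adjusted p = 0.0241). IFN2000 replicate 2 was the lowest of the 4 IFNγ libraries for Utp20, below replicate 3.

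In IFN2000 against Ctrl, 8.39% of all genes tested were higher. All 3 box C/D genes and all 3 growth and polyamine genes were higher in IFN2000, with medians of 0.2 and 0.22. Large subunit assembly had 8 of 16 higher, small subunit assembly 6 of 13, box H/ACA 2 of 4 and nucleolar phosphoproteins 2 of 3. RNA polymerase I and its regulators had 1 of 7 higher (14.3%), the role nearest the share of all genes. Set against IFN200, 25 members were higher in IFN2000 (against 11.3%) and none was lower (0 by edgeR and by DESeq2, against 11.0%), with a median of 0.12, and 36 members had an unadjusted p under 0.05. The largest rises there were Srm (0.30), Rrp9 (0.29) and Nip7 (0.29). Both comparisons share the IFN2000 libraries.

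Several measures moved with the IFN2000 group, and their part in the result was not tested beyond the values given here. T cell markers were raised in replicate 2, as given above. Without that library 14 members were higher and 0 lower, with 449 of 13563 genes tested higher. Without replicate 3, 32 members were higher and 2 lower, with 1670 of 13642 genes higher. Without Ctrl replicate 1, 10 members and 325 of 13718 genes were higher. In the fit of all libraries 1105 of 13177 genes were higher. Over 13043 genes with a length, the log2 ratio to Ctrl had a Spearman correlation with transcript length of -0.359 in replicate 2 and -0.195 in replicate 3, against -0.00821 to 0.15 in the other libraries. These points share a library and are given as a description. Over the 49 genes the correlation of the fitted log2 fold change with length was -0.34, and it was 0.2 once length and GC content were corrected for. With that correction 31 members were higher and 0 lower, while over all genes tested the counts went from 1105 higher and 1116 lower to 1447 and 758. Utp20, with an annotated transcript of 8821 bases, then had a log2 value of -0.05. Ncl, with an annotated transcript of 8202 bases, went from 0.09 to 0.22. These lengths are of an annotated transcript chosen by a fixed rule given below, and the form that was counted may differ in length.

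**Figure D4:**
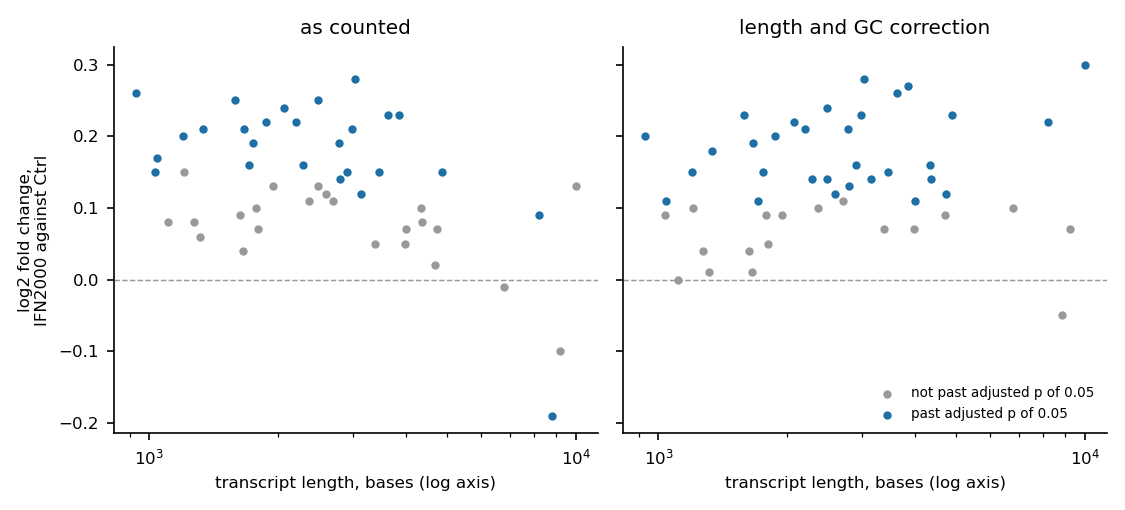
Each point is 1 of the 49 genes, with transcript length on a log axis and the log2 fold change in IFN2000 against Ctrl on the vertical axis, as counted (left) and with length and GC content corrected for (right). On the left the longest transcripts include the lowest values, down to -0.19 for Utp20, and on the right that point lies at -0.05.

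Whether the change with IFNγ differed when Oxali was present was tested as an interaction, the Combo minus Oxali difference less the IFNγ minus Ctrl difference. With 200 pg no member was called in either direction (0, against 0.137% lower and 0.562% higher) by edgeR or DESeq2, and 2 had an unadjusted p under 0.05. Over all genes tested, 18 were lower and 74 higher, and with upper-quartile scaling 24 and 57. With 2000 pg 4 members were called lower, against 0.600%, and none higher (0 by both tools, against 2.12%), and 20 had an unadjusted p under 0.05. Over all genes tested, 79 were lower and 280 higher, and with upper-quartile scaling 150 and 216. Polr1e was at 36.3 and 38.8 CPM (Ctrl), 37.1 and 38.4 (IFN200), 44.5 and 42.7 (IFN2000), 25.2 and 26.1 (Oxali), 22.5 and 24.8 (Combo200) and 22.5 and 24.4 (Combo2000). Without Oxali it rose with IFNγ by 0.21 on the log2 scale, the difference with Oxali was -0.13, and the interaction was -0.35 ± 0.09 (SE, adjusted p = 0.0429). For Mrto4 the respective values were 0.26 and -0.02, with an interaction of -0.28 ± 0.07 (SE, adjusted p = 0.0239). Nolc1 had 0.23 and 0.00, with an interaction of -0.23 ± 0.05 (SE, adjusted p = 0.021), and Odc1 had 0.22 and 0.00, with an interaction of -0.22 ± 0.06 (SE, adjusted p = 0.0475). These calls depended on the setting. Over all genes tested, too, fewer were called lower when any library but IFN2000 replicate 3 was left out. With only these 4 groups fitted, 45 of 12848 genes tested were called lower, among them 0 members. Leaving out Ctrl replicate 1, Oxali replicate 1, Combo200 replicate 2 or Combo2000 replicate 2 also left 0, and leaving out Ctrl replicate 2 or Combo200 replicate 3 left only Nolc1. Leaving out IFN2000 replicate 2 or Oxali replicate 2 gave 1 call, which was none of the 4 genes. Leaving out IFN2000 replicate 3 gave 14, and over all genes tested the number lower then went from 79 to 399.

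Other genes of the same pathway, from lists that do not hold the 49, were counted in Oxali against Ctrl. In this comparison 32.8% of all genes tested were lower and 34.8% were higher. Of 31 other small subunit assembly genes, 24 were lower and 6 higher, with a median log2 fold change of -0.39. Imp3, a U3 snoRNP protein, fell most (-1.11), followed by Tbl3 (-0.84), while Utp11 (0.35) and the kinase Riok2 (0.32) rose most. Of 31 other large subunit assembly genes, 23 were lower and 4 higher, with a median of -0.37. Pelp1 (-0.80) and Nsa2 (-0.73) fell most there, and Sbds (0.68) and the export adaptor Nmd3 (0.43) rose most. Sbds is known to release the factor Eif6 from the late large subunit.

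Transcription machinery showed counts of the same direction. The same shares of all genes tested, 32.8% lower and 34.8% higher, apply to every list in this paragraph. Of 11 other genes of RNA polymerase I, 7 were lower and 1 higher, with a median of -0.36. Taf1d (-0.85), part of the promoter selectivity factor, and Polr1d (-0.66) fell most, and Cd3eap (0.25) rose. Of 13 genes of RNA polymerase III, which makes 5S and transfer RNA, 10 were lower and 0 higher, with a median of -0.35, and Bdp1 (-0.72) fell most. The snoRNP assembly list had 7 of 10 lower and 1 higher, with a median of -0.29. Its largest falls were the AAA+ partners Ruvbl2 (-0.94) and Ruvbl1 (-0.82), and Znhit6 rose (0.55). Of 7 other polyamine genes tested, 5 were lower and 1 higher, with a median of -0.26. Amd1, which supplies the aminopropyl group for spermidine, fell, at -1.02 ± 0.05 (SE, adjusted p = 2.77e-12), as did Oaz1, the antizyme that inhibits Odc1, at -0.91 ± 0.05 (SE, adjusted p = 9.58e-12), while the antizyme inhibitor Azin1 rose (0.22).

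**Figure D5:**
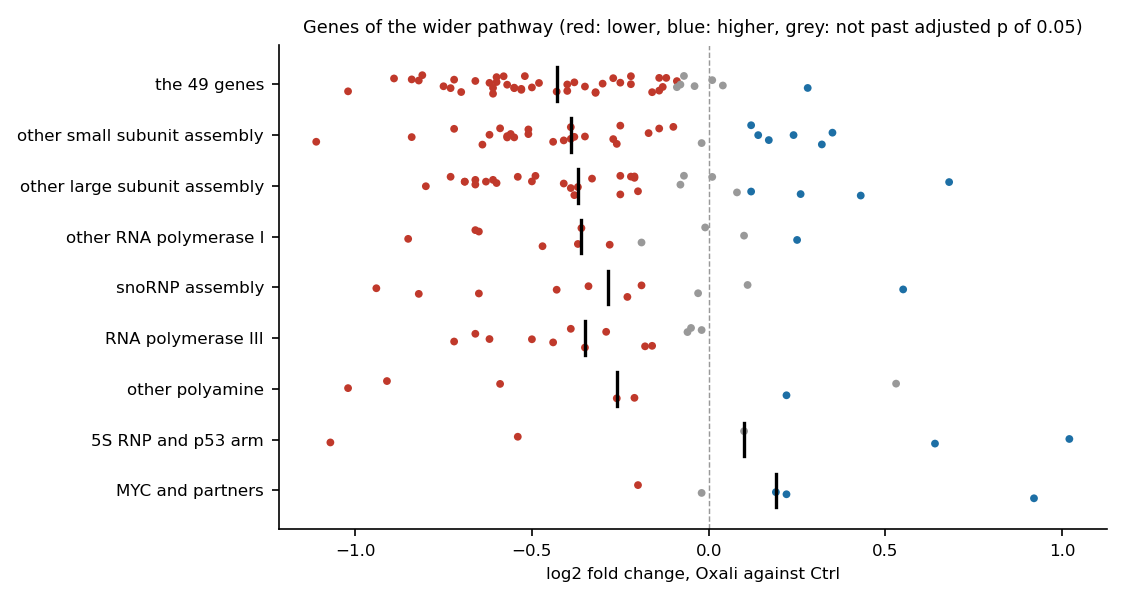
The horizontal axis gives the log2 fold change in Oxali against Ctrl for each gene of the 49 and of 8 related lists, and the black line is the median of a list. Medians lie between -0.26 and -0.43 for the 49 genes and the 6 lists of assembly, polymerase and polyamine genes, and at 0.1 and 0.19 for the 5S RNP and p53 list and for MYC and its partners.

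The 5S RNP, made of 5S RNA, Rpl5 and Rpl11, is known to bind and inhibit Mdm2, the ubiquitin ligase of p53, when ribosome assembly is disturbed. Of the 5 genes of that list, 2 were lower and 2 higher in Oxali, against 32.8% and 34.8% of all genes tested. Rpl5 was at 857 and 849 CPM (Ctrl), 896 and 863 (IFN200), 967 and 881 (IFN2000), 402 and 410 (Oxali), 413 and 423 (Combo200) and 420 and 438 (Combo2000), a log2 change of -1.07 ± 0.04 (SE, adjusted p = 1.95e-14), and that of Rpl11 was -0.54 ± 0.04 (SE, adjusted p = 1.5e-09). The p53 targets Mdm2 and Cdkn1a rose, by 0.64 ± 0.05 (SE, adjusted p = 4.35e-10) and 1.02 ± 0.06 (SE, adjusted p = 1.02e-11), and Trp53 itself had 0.10 ± 0.05 (SE, adjusted p = 0.057), which did not pass the test. In IFN2000, 0 of these 5 were lower and Cdkn1a rose by 0.29 ± 0.06 (SE, adjusted p = 0.00479).

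Of 5 genes of MYC and its partners, 1 was lower and 3 were higher in Oxali, against the same shares of all genes, so the count does not set this list apart. Mouse Myc was counted at 126 and 132 CPM (Ctrl), 129 and 132 (IFN200), 138 and 136 (IFN2000), 150 and 145 (Oxali), 140 and 146 (Combo200) and 142 and 152 (Combo2000). It rose by 0.19 ± 0.04 (SE, adjusted p = 0.000771) in Oxali, with all 6 Oxali-containing libraries above every other. The human transgene was not analysed here, and whether its reads were counted under mouse Myc was not tested. Mxd4, which pairs with MAX and opposes MYC at E-boxes, was at 38.6 and 32.9 CPM (Ctrl), 37.5 and 31.9 (IFN200), 13.5 and 15 (IFN2000), 67.6 and 66.9 (Oxali), 66.1 and 64.6 (Combo200) and 55.8 and 56.5 (Combo2000). Its log2 fold change was 0.92 ± 0.07 (SE, adjusted p = 4.94e-10) in Oxali and -1.32 ± 0.09 (SE, adjusted p = 2.98e-09) in IFN2000, so the libraries of IFN2000 were the lowest and those with Oxali the highest. Mnt rose (0.22), Mxi1 fell (-0.20) and Max did not pass the test (-0.02) in Oxali.

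In IFN2000, where 8.39% of all genes tested were higher and 8.47% lower, the lists moved less. The other small and large subunit assembly lists each had 13 of 31 genes higher and 0 lower, with medians of 0.12 and 0.1. Other RNA polymerase I genes had 4 of 11 higher, snoRNP assembly 2 of 10, RNA polymerase III 1 higher and 1 lower of 13, which is near the share of all genes, and other polyamine genes 0 of 7 in either direction. The length relation and the T cell markers given above apply to these counts too.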

How the data were processed

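The authors deposited raw counts per gene, 1 row per symbol and 1 column per library, of poly(A) RNA made with a stranded kit. The study's methods name alignment by STAR 2.7.3a to GRCm38 and counting by featureCounts, while the submitters' processing notes list STAR 2.7.3a and RSEM 1.3.0. Whether strand was used, and how reads that match several genes were treated, is not given in the sources used here. The counts were normalised with TMM, filtered with filterByExpr (minimum count 10, minimum total 15) and compared in 1 fit of all 12 libraries, with a mean per group, by quasi-likelihood F-tests (edgeR 4.0.16, R 4.3.3). A gene was called where its p, adjusted over all genes tested by Benjamini-Hochberg, was under 0.05, and SEs were derived from F. Exact tests of 2 against 2 libraries reach no two-sided p under 0.333, so calls borrow the spread of other genes. The study speaks of biological replicates for its experiments in general, but the labels do not say whether the libraries of a group came from separate cultures, so p-values measure the spread between libraries, which may be technical. Libraries of a group differed by more than counting noise, so none was a copy. Chi-square per degree of freedom ran from 1.65 in Combo200 to 8.39 in Oxali, with 1.735 in Ctrl. Each member had 516 to 69550 counts in a library.

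The 49 genes, the lists of further pathway genes and the markers (prostate epithelium, T cells, heart muscle, macrophages, endothelium and fibroblasts) were chosen with earlier results of these data known. Values in every library were given for the member of highest mean CPM and of largest change in Oxali in each role, for the 5 members not lower in Oxali with the largest log2 fold change, and for called interactions. In other comparisons the 3 largest called rises and falls were named, and in the lists the 2 largest of each, except that some genes of the lists are not reported here. Npm1, Noc4l, Nip7, Utp20, Rpl5, Myc and Mxd4 were shown in every library after their values were seen. Promoters are RefSeq's on GRCm38.p6, and lengths, overlaps and shared 50-base words come from GENCODE on GRCm38. A gene's length is that of its longest transcript tagged as principal, or else of its longest protein-coding or longest transcript. Alternatives were DESeq2 1.42.0, upper-quartile and RLE scaling, no filter, a mean of at least 50 counts, fits of only the groups compared, a replicate block, a length and GC correction, and leaving out each library. The code was tested on simulated data.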

Additional observations from a re-analysis of the deposited data

Results flagged for a closer look

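The log2 change with 2000 pg of IFNγ differed between cells with and without Oxali for 4 of the 49 genes, by the interaction test of edgeR. All 4 were called lower, against 0.600% of genes tested called lower and 2.12% called higher. The interaction was -0.35 ± 0.09 (SE, adjusted p = 0.0429) for Polr1e, -0.28 ± 0.07 (SE, adjusted p = 0.0239) for Mrto4, -0.23 ± 0.05 (SE, adjusted p = 0.021) for Nolc1 and -0.22 ± 0.06 (SE, adjusted p = 0.0475) for Odc1. Over the alternative settings the values ran from -0.41 to -0.28 for Polr1e, -0.37 to -0.22 for Mrto4, -0.29 to -0.2 for Nolc1 and -0.28 to -0.18 for Odc1. Polr1e was not called under 13 of these settings, Odc1 under 11, Mrto4 under 9 and Nolc1 under 7. The T cell markers and the length relation of the IFN2000 libraries enter these values, and their part was not tested.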

How the results depend on the processing

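No called result changed direction under any alternative run. Counts and medians not named here stayed within 1.5 times, or within the spread between libraries, under the alternatives run. Upper-quartile scaling gave an Oxali median of -0.38, with 0.07 over all genes tested. It also gave 1 member higher in Combo2000 against Oxali and 8 lower in the interaction at 2000 pg. The numbers higher in Combo200 and in Combo2000 against Ctrl were 1 each with RLE scaling and with DESeq2, and DESeq2 gave 1 higher in Combo2000 against Oxali. With no filter on low counts, 1 was higher in Combo200 against Ctrl, 1 lower in IFN2000 against IFN200, and 7 lower and 1 higher in the interaction at 2000 pg. Fitting only the groups compared left 0 lower in that interaction, and the length and GC correction gave 11, and 0 lower in IFN2000 against Ctrl. Over all genes tested, the number lower in that interaction was 79 of 13177 in the main fit. It was 150 with upper-quartile scaling, 159 of 26916 with no filter, 45 of 12848 with only the groups compared and 269 with the correction. The correction took the number lower in IFN2000 against Ctrl from 1116 to 758. The cause of these changes was not tested. With a replicate block, 11 were higher in IFN2000 against Ctrl, 15 in IFN2000 against IFN200 and 1 in Combo200 against Ctrl. It also gave 1 higher in Combo2000 against Ctrl, 1 higher in Combo2000 against Oxali and 2 lower in the interaction at 2000 pg. Over all 13177 genes tested, the block took the number higher in IFN2000 against Ctrl from 1105 to 508. Against IFN200 it went from 1493 to 756, and the number lower in the interaction at 2000 pg went from 79 to 50. Between groups with the same replicate numbers, the differences between replicates had correlations from -0.382 to 0.133. These correlations cannot show whether libraries with the same number share a culture or batch. Leaving out 1 library at a time gave ranges of 10 to 32 higher, 0 to 2 lower and a median of 0.12 to 0.18 in IFN2000 against Ctrl. In IFN2000 against IFN200 they were 16 to 29 higher, 0 to 2 lower and 0.12 to 0.18. The Oxali median ran from -0.48 to -0.41, the number higher from 1 to 2 in Combo200 and from 1 to 3 in Combo2000 against Ctrl, and from 1 to 2 in Combo2000 against Oxali. The interaction at 2000 pg ran from 0 to 14 lower and from 0 to 2 higher. With 2 libraries a group, a left-out library leaves its partner alone, which is then assumed to vary like the other groups. The numbers called over all genes tested also changed with the library left out, so these ranges of counts are not particular to the members.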

Other observations

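Several snoRNA genes lie inside genes of ribosome assembly and translation. Of the 49 genes, 9 (18.4%) held an annotated snoRNA gene within their bounds, against 1.69% of the genes tested that were found in the annotation. They were Nop56 with 5, Nop58 with 4, Ncl, Wdr43 and Gnl3 with 3 each, Tsr1 and Ppan with 2 each, and Dkc1 and Odc1 with 1 each. In Oxali the median log2 fold change was -0.3 over these 9 (range -0.81 to 0.01) and -0.52 over the other 40 (range -1.02 to 0.28). Over all genes tested it was -0.24 for the 221 with a snoRNA gene inside and 0.02 for the 12822 without. This grouping was chosen after values were seen, and the counts are of poly(A) RNA, so they give no level of the snoRNAs. Exons of Nop56 share 328 bases with snoRNA genes on the same strand, and those of Gnl3 share 235.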
